A study of Homo sapiens with 4 samples.

Results

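The SLC25 mitochondrial carriers were followed in A549 cells, a human line grown from a lung carcinoma with epithelial features. Members were the lines of the count table whose symbol begins with SLC25A and a digit, and 46 of 23340 gene lines met that rule. Of these 46 lines, 45 are protein-coding genes and 1 is an antisense transcript, SLC25A5-AS1. At least 50 counts in every library were found for 35 members, all coding and spread over 17 chromosomes, and the other 11 are given below as silent or near silent.

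Poly-A RNA was sequenced in 4 libraries, 2 of WT cells and 2 of cells in which nocturnin (NOCT), a protein first described as clock-regulated, had been knocked out. The knockout libraries are those labelled NOCT_KO4 and NOCT_KO5, here clone 4 and clone 5. Each comes from a clone grown by limiting dilution after lentiviral delivery of Cas9 with a guide RNA and puromycin selection, so each clone is 1 library. Whether the WT cells went through the same virus, selection and cloning, and whether the WT pair came from separate cultures, is not given in the sources used here. The p-values then measure only the spread between these libraries. Within the WT pair that spread may be technical. In WT against NOCT-KO it also holds the spread between the clones, which the paper describes as independently derived.

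Carriers of the SLC25 family are small proteins of the inner mitochondrial membrane that swap solutes between the cytosol and the matrix. They bring ADP, phosphate, fuels and cofactors in and take ATP, citrate and other products out. A few members sit elsewhere, such as SLC25A17 in the peroxisome and SLC25A46 in the outer mitochondrial membrane. In most tissues a small number of abundant carriers serves oxidative phosphorylation, and others are kept to tissues such as liver, brain or testis.

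The libraries held 36873556 to 41963070 counts over gene lines. NOCT, listed under its older symbol CCRN4L, was at 20.8 and 20.1 CPM in the WT pair (counts scaled by the TMM method to a library of 1000000), 29.3 in clone 4 and 15.6 in clone 5. Its WT over NOCT-KO log2 fold change was -0.13 (edgeR's quasi-likelihood test, Benjamini-Hochberg adjusted p = 0.99). With each clone on its own, in the fit of 3 groups described further on, it was called higher in clone 4 than in WT (WT over clone 4 -0.52, edgeR adjusted p = 0.0293) and higher in clone 4 than in clone 5 (0.91, edgeR adjusted p = 0.00223), while WT over clone 5 was 0.39 (edgeR adjusted p = 0.208). The targeted transcript was thus raised, not lowered, in a library labelled as knockout. The count spans the whole gene and says nothing of a small edit, so it does not check the labels. The study's methods state that single-cell clones went on to genotyping and, separately, to confirmation of the mutation in transcripts. Every direction between WT and the clones rests on the labels of the libraries. Epithelial keratins KRT8 and KRT18 and the A549 markers ALDH1A1 and AKR1B10 were at 721 CPM or more in every library, while KRT19 was at 0 and EPCAM reached at most 0.166 CPM. Summed epithelial markers ran at 1669 and 1863 CPM in the WT pair, 2583 in clone 4 and 1498 in clone 5, and the A549 markers at 4184, 4065, 4565 and 3246 CPM in these libraries in the same order. Of the 3 epithelial markers tested, KRT8 and KRT18 were called higher and CDH1 lower in clone 4 than in WT, and KRT18 lower in clone 5 than in WT. Of the 3 A549 markers, AKR1B10 and AKR1C1 were called higher in clone 4 than in WT, ALDH1A1 lower in clone 5 than in WT, and all 3 higher in clone 4 than in clone 5, as were KRT8 and KRT18. The markers of alveolar type II, erythroid and testis cells were at 0 in every library, as were PTPRC and CD3E of blood cells, PECAM1 and CDH5 of endothelium, DCN and THY1 of fibroblasts and MYH7 of muscle. In the remaining lists CD68 was highest in clone 5 (21.1 CPM, with 12.5 the lowest) and was called higher there than in WT (WT over clone 5 -0.75). PDGFRA read 1.47, 1.01, 0.111 and 0.337 CPM, in the order WT 1, WT 2, clone 4, clone 5. It was called lower in clone 4 than in WT (WT over clone 4 3.45), at low values in every library. The part of these markers in the results on carriers was not tested. The order of libraries given for PDGFRA holds for every set of 4 values that follows.

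The ADP/ATP carriers come first because a member known to be widely expressed was listed at 0. These proteins exchange cytosolic ADP for matrix ATP, and the family has 4 human genes, SLC25A4, SLC25A5, SLC25A6 and the testis form SLC25A31. The 3 somatic forms are close in sequence. Their coding sequences, 894 bases each in the GENCODE annotation lifted to hg19, were 77.2% identical between SLC25A4 and SLC25A5, 77.9% between SLC25A4 and SLC25A6 and 78.7% between SLC25A5 and SLC25A6. The longest run of identical aligned bases was 14, 20 and 29 for these pairs. The same 48-base stretch of each is shown because it holds the signature by which ADP/ATP carriers are known, and the capitals mark the 11 positions where the genes vary. It lies within a coding exon at chr4:186067002-186067049 on the plus strand for SLC25A4, at chrX:118604425-118604472 on the plus strand for SLC25A5, and at chrX:1506176-1506223 on the minus strand for SLC25A6.
SLC25A4: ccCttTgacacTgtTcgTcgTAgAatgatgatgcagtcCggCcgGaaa
SLC25A5: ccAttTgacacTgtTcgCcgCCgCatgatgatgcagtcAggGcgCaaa
SLC25A6: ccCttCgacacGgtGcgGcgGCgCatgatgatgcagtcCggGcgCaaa

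Among these forms SLC25A5 stood far above the others. It had 738, 785, 701 and 767 CPM, and SLC25A4, the form of heart and muscle, had 15.5, 14.6, 12.4 and 13.8 CPM. As CPM per kilobase of exon (RPKM), SLC25A5 was 147, 166, 176 and 172 times SLC25A4 in the same library. In CPM it was 47.6, 53.7, 56.7 and 55.4 times, and merged exons span 1555 bases for SLC25A5 and 4819 for SLC25A4. The size of the ratio thus depends on the length used. SLC25A31 was at 0 in every library.

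SLC25A6 was also at 0 in every library. Where reads of a gene can be counted, a count of 0 allows up to 3 counts, or 0.0711 to 0.0832 CPM, if counts are independent. Counts may be per mate, as described under processing, and that bound would then be higher. Whether reads of SLC25A6 could be counted is not known. The gene lies in the region shared by the X and Y chromosomes, and its 2 coding transcripts annotated on X and on Y are identical over 1451 bases. Of the 18 coding genes of the table annotated under 1 symbol on both X and Y, 17 were at 0 in every library, SLC25A6 among them, against 32.3% of all lines. The 17 include CD99, VAMP7 and ZBED1, and the remaining gene, PLCXD1, had 3, 5, 2 and 4 counts. The value of SLC25A6 is therefore given as listed at 0, and how the authors' counting treated reads from these shared regions is not given in the sources used here. Reads of SLC25A4 and SLC25A5 are separable wherever they cover varying positions such as those in capitals.

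Across the family, transcript levels ran from under 1 to 505 RPKM. Levels between genes are compared only as RPKM. SLC25A5 led with 474, 505, 451 and 493 RPKM, and SLC25A3, the carrier that brings phosphate into the matrix for ATP synthesis, followed with 148, 142, 137 and 137 RPKM. SLC25A32, linked to folate and FAD import, came next with 49.0, 50.9, 57.6 and 55.0 RPKM. On this scale these leading genes did not overlap in any library, so their order held in WT and in both clones. The order of SLC25A5 and SLC25A3 rests on the division by length. In CPM SLC25A3 was the higher, with 1321, 1266, 1215 and 1215 against 738, 785, 701 and 767. Merged exons span 8896 bases for SLC25A3 (longest transcript 6087) and 1555 for SLC25A5 (longest transcript 1307). Which transcripts were present was not examined.

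SLC25A13 (citrin, an aspartate/glutamate carrier of the malate-aspartate shuttle) had 29.2, 34.4, 30.8 and 31.6 RPKM. SLC25A24, a calcium-regulated ATP-Mg/phosphate carrier, had 30.1, 29.8, 33.5 and 32.3 RPKM. The ranges of SLC25A13 and SLC25A24 overlapped, and their order is not resolved. With the longest transcript in place of merged exons, 4 of the first 5 genes stayed, SLC25A39 took the fifth place and SLC25A13 the sixth. By the mean of the 4 libraries the bottom of the 35 was SLC25A45, whose substrate is less settled, at 0.513, 0.619, 0.593 and 0.367 RPKM. SLC25A35 lay below it in WT 2 (0.390 RPKM) and SLC25A21 in clone 4 (0.373 RPKM).

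Shares were taken over the 35 members with at least 50 counts in every library. SLC25A3 and SLC25A5 together made up 57.6, 56.8, 54.0 and 55.2% of the summed CPM of these 35, and 65.5, 65.4, 62.2 and 64.2% of their summed RPKM. The 35 together took 0.363, 0.367, 0.347 and 0.356% of library counts. The share of the leading pair was lowest in clone 4 on both scales. Poly-A RNA of a bulk culture cannot tell fewer cells with a transcript from less of it per cell.

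**Figure D1:**
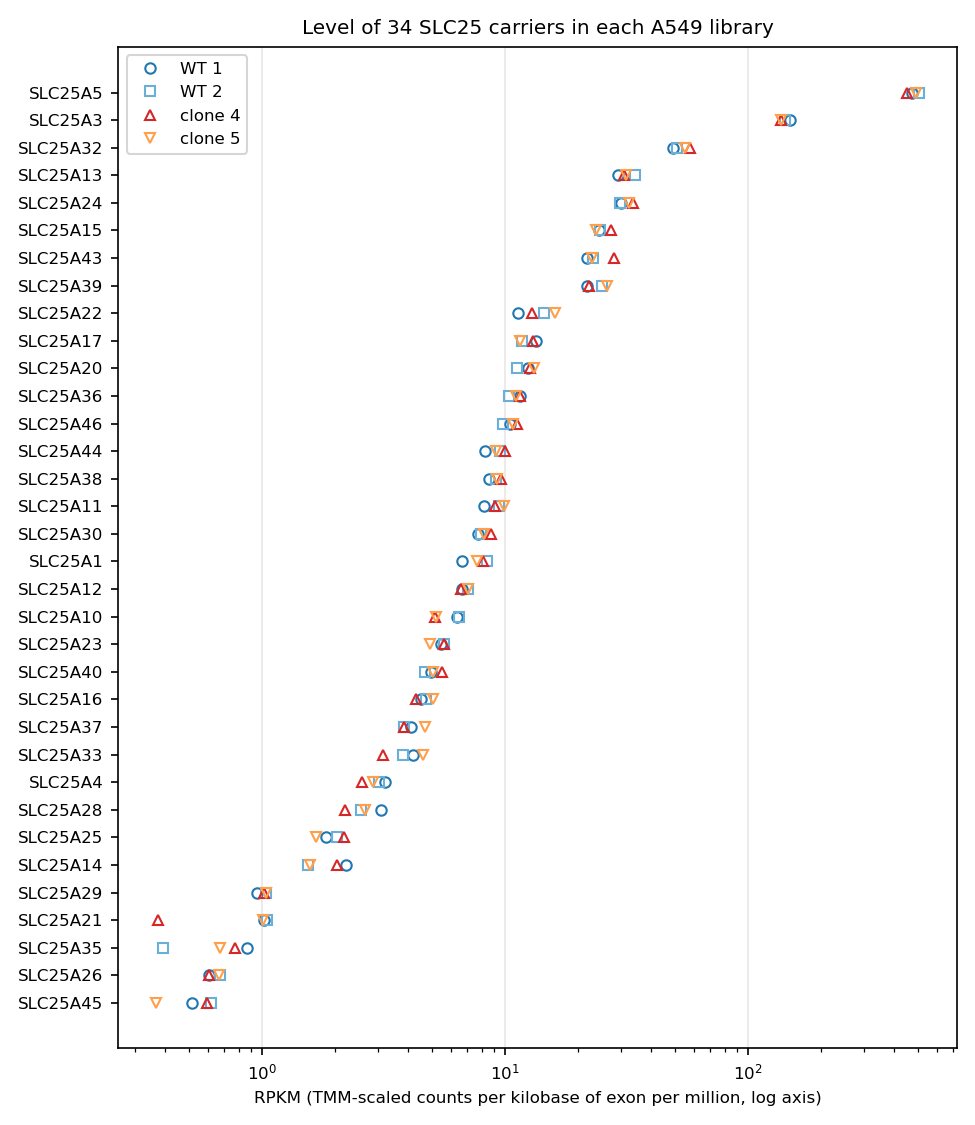
Level of 34 carriers with at least 50 counts in every library, as CPM per kilobase of exon (RPKM, log axis), with 1 marker per library. SLC25A5 (451 to 505 RPKM) and SLC25A3 (137 to 148 RPKM) stand apart at the top, and the 4 markers lie close together for most genes, with SLC25A21 in clone 4 and SLC25A35 in WT 2 set off to the left.

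Many of the silent and near silent members are known from other tissues. Besides SLC25A6, the members at 0 in all 4 libraries were SLC25A2 (a second ornithine carrier), SLC25A31 (testis) and SLC25A47 (liver). Near silence was seen for SLC25A18, a glutamate carrier of brain, with 4, 2, 0 and 0 counts, SLC25A41, an ATP-Mg/phosphate carrier, with 2, 2, 0 and 4 counts, and SLC25A48 with 2, 0, 0 and 0 counts. SLC25A34 had 6, 12, 2 and 0 counts.

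The other members under 50 counts passed edgeR's filter and were tested. SLC25A42, which exchanges coenzyme A for adenine nucleotides, had 36, 42, 24 and 20 counts, and SLC25A27, an uncoupling protein relative of brain, had 64, 48, 92 and 34 counts. SLC25A5-AS1 had 88, 90, 42 and 74 counts. Just inside the limit of 50 were SLC25A21 and SLC25A35, each with 64 counts in its lowest library. In all 38 members were tested, the 35 and these 3, and 8 were too low.

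A match with promoter sequence was looked for next. RefSeq sequence of the 250 bases before the start (GRCh38.p14) was found for 38 members, 29 of them with at least 50 counts in every library. Those 29 had a median of 23 CpG dinucleotides (range 4 to 42), the 9 others a median of 14 (range 2 to 35), and all 35116 promoters of the set a median of 11. Of all promoters 25.8% held 23 or more CpG. The motif searched was CG, which reads the same on both strands, and this is a description of sequence only.

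Promoters of 3 members are shown to set an abundant carrier beside carriers listed at 0, with each CpG in capitals. SLC25A3 has 34 CpG in chr12:98593436-98593685 on the plus strand, SLC25A6 has 35 in chrX:1392114-1392363 on the minus strand, and the liver gene SLC25A47 has 7 in chr14:100323089-100323338 on the plus strand.
SLC25A3: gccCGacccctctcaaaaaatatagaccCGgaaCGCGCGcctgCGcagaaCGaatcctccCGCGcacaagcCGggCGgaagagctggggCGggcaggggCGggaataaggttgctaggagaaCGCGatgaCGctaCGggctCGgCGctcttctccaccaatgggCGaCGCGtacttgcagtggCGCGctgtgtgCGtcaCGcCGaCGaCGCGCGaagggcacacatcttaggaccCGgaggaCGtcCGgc
SLC25A6: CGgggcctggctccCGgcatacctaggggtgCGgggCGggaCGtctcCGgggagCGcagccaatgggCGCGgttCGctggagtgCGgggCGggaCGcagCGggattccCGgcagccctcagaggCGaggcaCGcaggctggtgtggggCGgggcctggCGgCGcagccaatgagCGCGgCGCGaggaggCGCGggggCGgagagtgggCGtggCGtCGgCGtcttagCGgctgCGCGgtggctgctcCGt
SLC25A47: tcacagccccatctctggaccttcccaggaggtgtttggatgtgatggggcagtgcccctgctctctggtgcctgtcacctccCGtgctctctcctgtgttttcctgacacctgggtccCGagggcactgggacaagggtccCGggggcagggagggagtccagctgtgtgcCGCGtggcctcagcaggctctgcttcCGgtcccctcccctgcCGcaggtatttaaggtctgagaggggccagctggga

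The SLC25A6 window is about as dense in CpG as that of SLC25A3, and since the 0 of SLC25A6 is not read as a level, nothing is drawn from it here. SLC25A31, at 0 in every library, has 21 CpG, and SLC25A45 has 4 at a low but measured level.

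**Figure D2:**
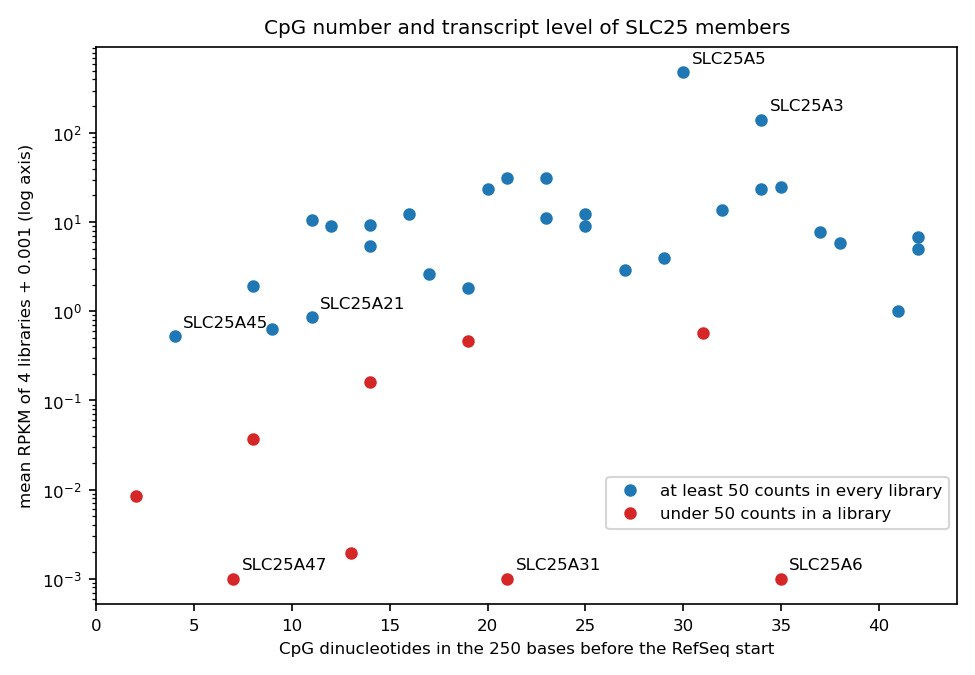
Number of CpG dinucleotides in the 250 bases before the RefSeq start against mean RPKM of the 4 libraries (log axis, 0.001 added), for the 38 members with a promoter entry. Members with at least 50 counts in every library (blue) span 4 to 42 CpG, and those under 50 counts (red) span 2 to 35, with SLC25A6 farthest to the right of these, drawn at the floor as listed although its 0 is not read as a level.

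The spread among the 4 libraries was described for the 35 members with at least 50 counts in every library. That limit leaves out members that fall low in a library, such as SLC25A27 with 2.55 CPM in clone 4 and 0.817 in clone 5. The highest CPM was a median of 1.19 times the lowest over the 35, under 1.2 times in 18 and under 1.5 times in 32. The same ratio was not computed for all genes. The steadiest was SLC25A12 (aralar, the aspartate/glutamate carrier of muscle and brain), at 1.07 times. The exceptions were SLC25A45 at 1.68, SLC25A35 at 2.22 and SLC25A21 at 2.82 times. For SLC25A35, whose substrate is less settled, the spread lay inside the WT pair, with 3.41 and 1.54 CPM. In 6 members the WT pair itself differed by more than 0.25 on the log2 scale.

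The comparison of WT with NOCT-KO asks which carrier transcripts differ with the genotype, with the clones as replicates. None of the 38 members tested passed edgeR's quasi-likelihood test after Benjamini-Hochberg adjustment at 0.05, and 0.0% of all 13143 genes tested did. At an unadjusted p under 0.05 there were 0 members against 553 genes, or 4.21% of all. DESeq2 and limma-voom also called 0 members. The log2 fold change was above 0 for 17 members (49.9% of all genes) and below 0 for 21 (50.1% of all genes), with a median of -0.04 against 0.00 for all genes. It lay within 0.25 of 0 for 33 of 38 members (86.8%), and 73.3% of all genes did so.

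**Figure D3:**
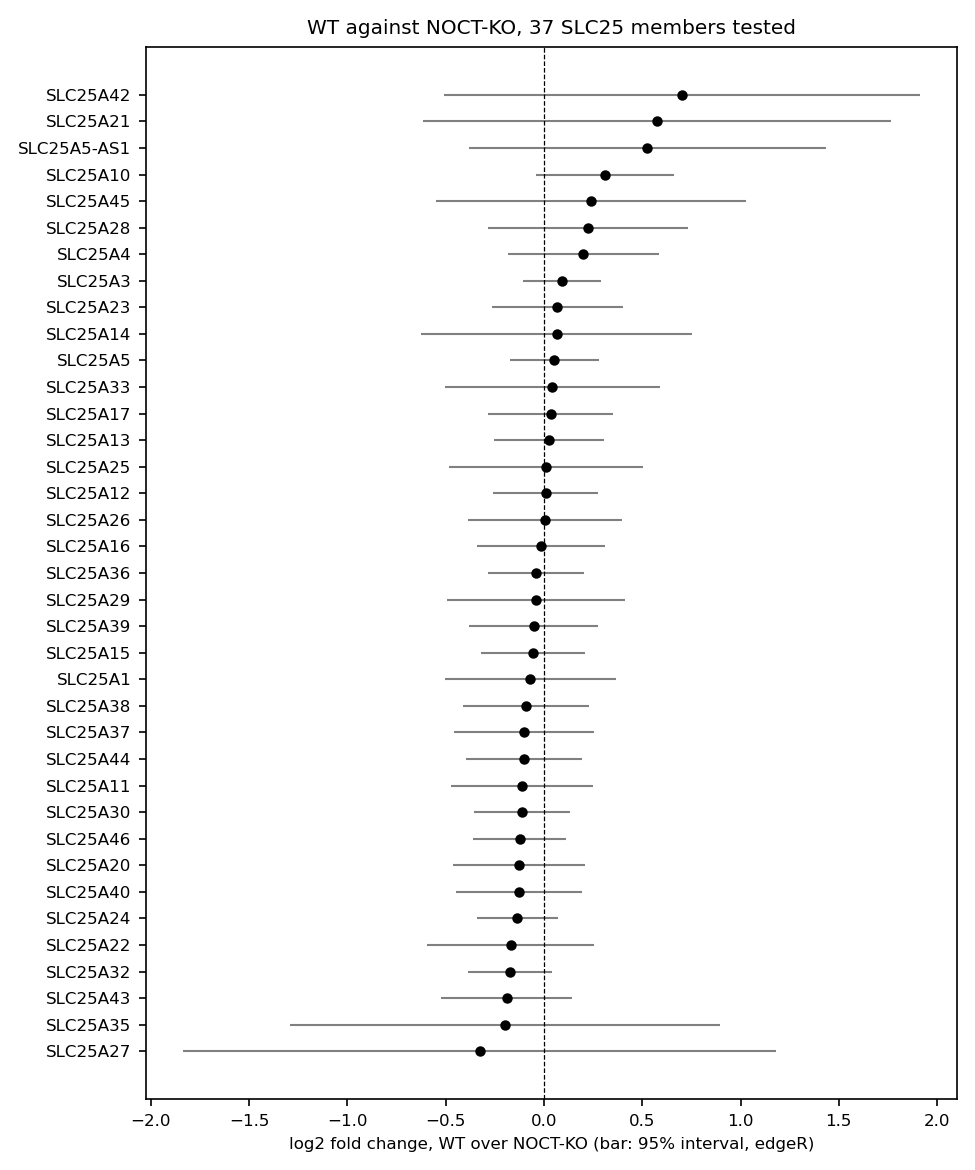
WT over NOCT-KO log2 fold change of 37 members tested (points) with 95% intervals (bars) from edgeR's fit with 2 libraries a group. Every interval crosses 0, and the widest belong to the low-count members SLC25A27, SLC25A42 and SLC25A21.

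Among the carriers of oxidative phosphorylation, SLC25A3 had 1321, 1266, 1215 and 1215 CPM. Both WT libraries lay above both clones, by a log2 fold change of 0.09 (SE 0.08, 95% interval -0.11 to 0.29). SLC25A5 overlapped between the groups, with a log2 fold change of 0.05 (95% interval -0.17 to 0.28). SLC25A4 was 15.1 ± 0.62 CPM in WT (SD, n = 2) and 13.1 ± 1.0 in the clones (SD, n = 2), a log2 fold change of 0.20 (95% interval -0.18 to 0.58).

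The smallest p-values belonged to carriers of other routes. SLC25A10, the dicarboxylate carrier that exchanges malate or succinate for phosphate, had 16.6, 16.9, 13.5 and 13.6 CPM. Its WT libraries did not overlap the clones, and the log2 fold change was 0.31 (SE 0.14, 95% interval -0.04 to 0.66, unadjusted p = 0.0736 and adjusted p = 0.971 by edgeR). SLC25A32 went the other way with 179, 186, 210 and 201 CPM, a log2 fold change of -0.17 (SE 0.09, 95% interval -0.39 to 0.04, adjusted p = 0.971 by edgeR). Its clones lay above both WT libraries. SLC25A24 had 202, 201, 225 and 217 CPM, again with the clones above, and a log2 fold change of -0.14 (95% interval -0.34 to 0.07).

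The low members SLC25A42 and SLC25A5-AS1 complete the 5 smallest. SLC25A42 had 0.853, 1.01, 0.666 and 0.481 CPM (log2 fold change 0.70, 95% interval -0.51 to 1.91), and SLC25A5-AS1 had 2.09, 2.16, 1.16 and 1.78 CPM (0.53, 95% interval -0.38 to 1.44). Both were lower in each clone than in each WT library. SLC25A5-AS1 overlaps exons of SLC25A5 on the opposite strand, and reads of the pair may be shared, since no source used here gives the strand setting of the counting.

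By role, no group of carriers held a call in WT against NOCT-KO. The aspartate and glutamate carriers tested (SLC25A12, SLC25A13 and the glutamate carrier SLC25A22) had log2 fold changes of -0.17 to 0.03. The ATP-Mg/phosphate carriers SLC25A23, SLC25A24 and SLC25A25 had -0.14 to 0.07, and the ornithine and basic amino acid carriers SLC25A15 and SLC25A29 -0.06 and -0.04. These groups all stayed within 0.25 of 0.

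Wider ranges came from groups with low members. The di- and tricarboxylate carriers, the citrate exporter SLC25A1, SLC25A10, the oxoglutarate/malate carrier SLC25A11 and SLC25A21, ran from -0.11 to 0.57. The nucleotide and cofactor group ran from -0.17 to 0.70. Among its members are the pyrimidine nucleotide carriers SLC25A33 and SLC25A36, peroxisomal SLC25A17, SLC25A16, SLC25A42, the S-adenosylmethionine carrier SLC25A26 and SLC25A32.

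Carriers tied to heme, iron and glutathione lay close to 0. SLC25A38 imports glycine for heme synthesis, SLC25A37 and SLC25A28 are the mitoferrins, and SLC25A39 imports glutathione, with SLC25A40 its close relative. Their log2 fold changes were -0.13 to 0.23. The acylcarnitine carrier SLC25A20 was at -0.13 and the fission-linked SLC25A46 at -0.12. The uncoupling protein relatives SLC25A14, SLC25A27 and SLC25A30 ran from -0.33 to 0.06, and the less settled SLC25A35, SLC25A43, SLC25A44 and SLC25A45 from -0.20 to 0.24.

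Both WT libraries lay above both clones for 6 of 38 members (SLC25A3, SLC25A4, SLC25A10, SLC25A21, SLC25A42 and SLC25A5-AS1), against 17.9% of all genes. They lay below both clones for 7 (SLC25A20, SLC25A24, SLC25A30, SLC25A32, SLC25A38, SLC25A40 and SLC25A46), against 16.4% of all genes. The 10474 genes that reached 100 counts in each library were also ordered by the ratio of WT to NOCT-KO counts, each summed over its libraries, and 33 members were among them. Of them 4 fell in the top 2000 and 3 in the bottom 2000, where each end holds 19.1% of the genes. These counts are near or below the background, and the bottom count rose to 7 without WT 1, 6 without WT 2 and 5 without clone 4.

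Each clone was then set against the WT pair in a fit with 3 groups. A lone clone is there assumed to vary like the WT pair, with 1 residual degree of freedom, and both contrasts share that pair. In WT against clone 4 the called members were 1 of 38, SLC25A21, higher in WT, where 11.4% of all genes tested were called (1502 of 13143) and 6.02% were called higher in WT. There 4 members (SLC25A21, SLC25A27, SLC25A32 and SLC25A43) had an unadjusted p under 0.05, against 23.7% of all genes. In WT against clone 5 the called members were 0 of 38, where 3.51% were called (461), and 2 members, SLC25A22 and SLC25A45, had an unadjusted p under 0.05 (15.6% of all genes). DESeq2 and limma-voom also called 0 members there. Clone 4 against clone 5 gave 1 call, SLC25A21 again, lower in clone 4, where 13.1% of all genes were called (1723) and 7.38% lower in clone 4. An unadjusted p under 0.05 was found there for 4 members (SLC25A21, SLC25A27, SLC25A33 and SLC25A43), against 25.4% of all genes.

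The share of members called was thus below that of all genes in each of these contrasts, a difference that was not tested. Their log2 fold changes lay within 0.25 of 0 for 27 of 38 in WT against clone 4 (71.1%, all genes 60.0%) and for 31 in WT against clone 5 (81.6%, all genes 67.7%). For clone 4 against clone 5 it was 25 (65.8%, all genes 54.1%). The medians were -0.05, -0.03 and 0.05, against 0.01, 0.00 and 0.00 for all genes.

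SLC25A21 was the member that differed. It carries 2-oxoadipate and related oxodicarboxylates into the matrix, on the breakdown route of lysine and tryptophan, and lies at hg19 chr14:37147126-37641811 on the minus strand. Its counts were 204, 208, 64 and 200, or 4.84, 5.0, 1.78 and 4.81 CPM. Clone 4 was at 36.1% of the WT mean, and clone 5 lay just under the WT pair.

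WT over clone 4 gave SLC25A21 a log2 fold change of 1.47 (SE 0.30, 95% interval 0.83 to 2.11, edgeR adjusted p = 0.00522). Against clone 5 it was 0.03 (SE 0.26, 95% interval -0.53 to 0.59, edgeR adjusted p = 0.968). The direct test of clone 4 over clone 5 gave -1.44 (SE 0.33, 95% interval -2.15 to -0.73, edgeR adjusted p = 0.00957). With the clones as replicates, WT over NOCT-KO was 0.57 (SE 0.48, edgeR adjusted p = 0.971), 1.46 without clone 5 (adjusted p = 0.0127) and 0.03 without clone 4. The low value was thus that of clone 4, and clone 5 differed from the WT pair by less than its error.

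The call was lost when low genes were not filtered out. Without the filter the edgeR adjusted p was 0.0590 for WT against clone 4 and 0.0636 for clone 4 against clone 5, and the DESeq2 Wald test of the latter gave 0.0752. Over 8 alternatives the adjusted p of WT against clone 4 ran from 0.00278 to 0.0590, and over 7 that of clone 4 against clone 5 from 0.00713 to 0.0752.

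Genes around SLC25A21 were examined for a shared shift. PAX9, a transcription factor gene whose exons overlap it on the opposite strand, had 4.65, 4.95, 5.6 and 5.0 CPM, and was not lower in clone 4. The 20 nearest tested genes, all within 2.25 Mb, had a median WT over clone 4 log2 fold change of -0.06, with 1 call and 0 of the calls higher in WT.

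**Figure D4:**
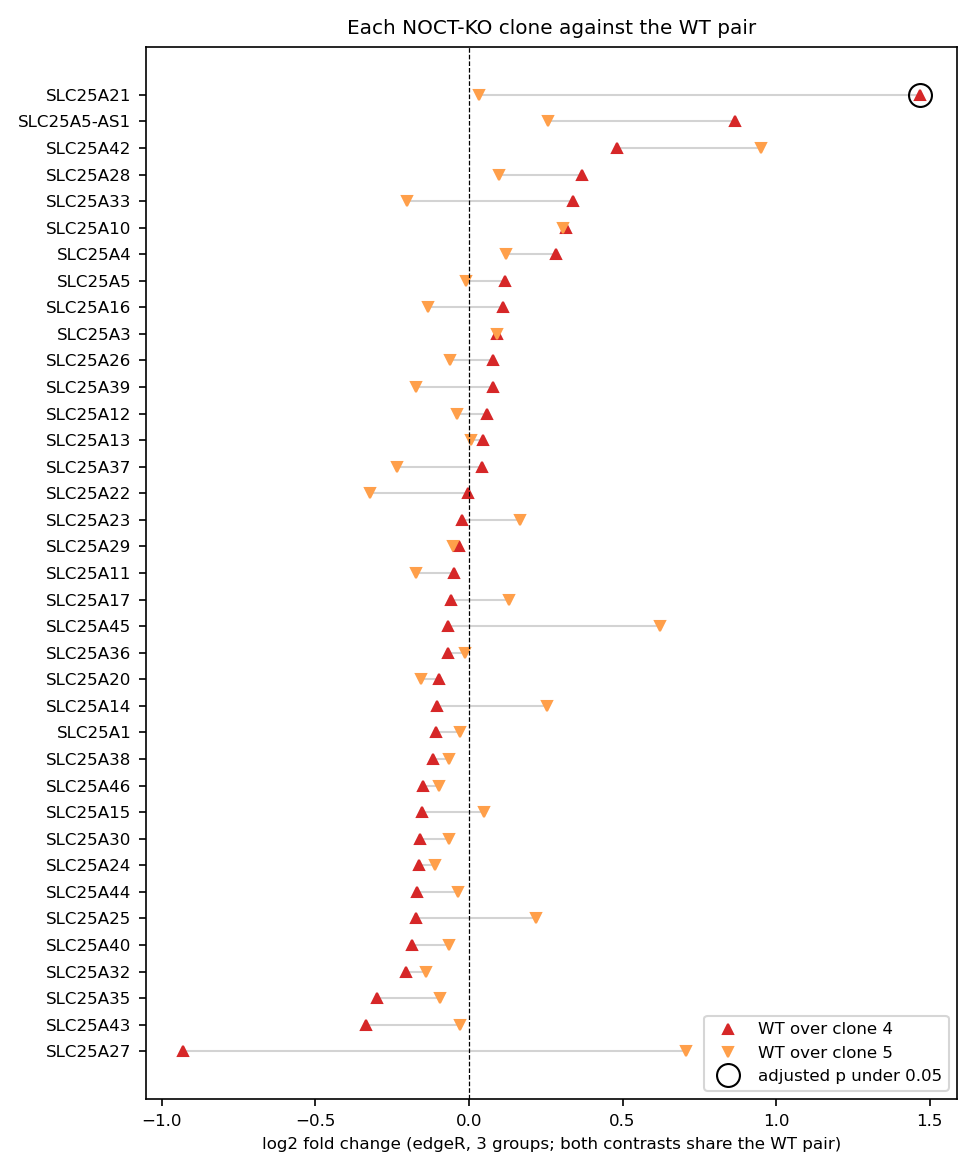
WT over clone 4 (red) and WT over clone 5 (orange) log2 fold changes of 37 members tested, joined by a line for each gene; both contrasts use the same WT pair. SLC25A21 is circled at 1.47 as the call, with clone 5 at 0.03, and SLC25A27 is the member whose clones lie farthest apart, at -0.93 and 0.71.

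Below the threshold stood a few other members that separated the clones. SLC25A43, on the X chromosome, had 61.4, 65.2, 79.9 and 64.7 CPM, and its WT over clone 4 log2 fold change was -0.34 (SE 0.10, edgeR adjusted p = 0.0515). It was highest in clone 4, and passed with DESeq2 size factors (edgeR adjusted p = 0.0475) and with halved counts (0.0372). It was at 0.178 with no filter, 0.147 with the DESeq2 Wald test and 0.0673 with limma-voom. SLC25A27 had 1.52, 1.15, 2.55 and 0.817 CPM, also highest in clone 4, and a clone 4 over clone 5 log2 fold change of 1.64 (SE 0.54, edgeR adjusted p = 0.0618). That became 0.0381 with halved counts, 0.146 with no filter and 0.312 with the DESeq2 Wald test. SLC25A33, a pyrimidine nucleotide carrier, had 16.2, 14.7, 12.2 and 17.7 CPM, and a clone 4 over clone 5 value of -0.54 (edgeR adjusted p = 0.0839).

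Relatives of the family that carry other symbols were followed as a list of 8. UCP1 was at 0 in every library, 6 of the 8 were tested, and 1 was called, in WT against clone 4 (11.4% of all genes). MCART6 (now SLC25A53) had 18, 20, 0 and 10 counts (edgeR adjusted p = 0.0298). It passed the filter only through the WT libraries and is set against 1 library at 0, so this call is given as a description and no fold is read from it. MTCH1, a relative in the outer membrane, had 70.1, 69.9, 58.6 and 62.4 CPM, a WT over NOCT-KO log2 fold change of 0.21 (95% interval -0.03 to 0.45), and MTCH2 had 0.14 (95% interval -0.15 to 0.43). MCART1 (now SLC25A51), the mitochondrial NAD+ carrier and picked here after its values were seen, had 19.7, 17.5, 16.9 and 18.5 CPM and a WT over NOCT-KO log2 fold change of 0.07 (95% interval -0.30 to 0.44). Its groups overlapped.

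The machinery that inserts carriers into the inner membrane, the TIM22 route, held 0 calls among 10 genes in every comparison, and its medians were -0.02 for WT over NOCT-KO, -0.12 for clone 4 and 0.05 for clone 5. At an unadjusted p under 0.05 there were 0, 1 and 1 of these genes. Its intermembrane space chaperone TIMM10 had 93.7, 115, 123 and 120 CPM and a WT over NOCT-KO log2 fold change of -0.22 (95% interval -0.53 to 0.09). The kinase AGK, a subunit of the TIM22 complex, was at -0.19 and the chaperone TIMM10B (FXC1) at 0.14.

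Transporters of other mitochondrial families, 20 genes, had 0 calls in WT against NOCT-KO, 3 in WT against clone 4, 1 in WT against clone 5 and 4 in clone 4 against clone 5. The shares of all genes called were 0.0%, 11.4%, 3.51% and 13.1%. All the calls in WT against clone 4 were higher in WT, where 6.02% of all genes were called in that direction. Those between the clones were all lower in clone 4, against 7.38% of all genes. Whether these counts differ from the background was not tested. MPC1 (listed as BRP44L), a subunit of the pyruvate carrier, had 11.9, 10.5, 5.55 and 12.0 CPM and was 1.02 higher in WT than in clone 4 on the log2 scale (SE 0.21, edgeR adjusted p = 0.00497). The calcium uniporter pore MCU had 126, 126, 89.3 and 131 CPM (0.50, edgeR adjusted p = 0.00375), and the partner subunit MPC2 (BRP44) was 0.42 higher in WT (edgeR adjusted p = 0.0482). Like SLC25A21, MPC1 and MCU were low in clone 4 and close to WT in clone 5. Against clone 5 the sideroflexin SFXN3 was called lower in WT, with 31.8, 34.1, 34.1 and 48.3 CPM (-0.55, edgeR adjusted p = 0.0194). MPC1, MCU, SFXN3 and the uniporter regulator MCUR1 (CCDC90A) were lower in clone 4 than in clone 5. SFXN2, with the smallest p of the list in WT against NOCT-KO, had a log2 fold change of 0.43 (95% interval -0.03 to 0.89), and ABCB8 -0.26 (95% interval -0.59 to 0.08).

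Reads of overlapping genes limit some of these values. Of the 35 members, 11 share exon positions with another gene of the table, 9 of them on the opposite strand. Examples are SLC25A11 with RNF167, SLC25A32 with DCAF13 and SLC25A40 with DBF4, and without a stated strand setting such reads cannot be told apart. On simulated counts with the depth of these libraries, the WT against NOCT-KO test found 7.46% of the genes given a log2 change of 0.5. For changes of 1 and 2 on that scale it found 49.3% and 84.8%, so most shifts of 0.5 were missed there. The simulation changed 200 genes and gave each gene the spread typical of its level, not its own. In the data 0 of 13143 genes were called in this comparison. The simulated rates may therefore overstate what the test could find in these libraries.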

How the data were processed

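The authors deposited raw counts per gene, not normalized, for 4 libraries of poly-A RNA from A549 cells (HiSeq 2000, mapped to hg19). TopHat2 and HTSeq appear in the submitters' processing notes. Annotation, strand setting and library kit were not given in the sources used. Of the nonzero counts 99.1 to 99.2% were even, so counts may be per mate, and halved counts were tried. Of 23368 lines, 28 hold a date in place of a symbol (0.274% of counts) and were left out. No column was left aside (0).

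Symbols were matched to GENCODE on hg19 as given (19556) or by an older symbol (1900), and 1884 were not matched. Genes were kept by edgeR's filter (minimum count 10, minimum total 15), scaled by TMM and tested over all 13143 genes kept with the quasi-likelihood test at a Benjamini-Hochberg adjusted p of 0.05, in 2 groups (2 residual degrees of freedom, biological coefficient of variation 19.7%) or 3 (1 degree of freedom, 8.33%). RPKM used merged exon length. Tools were R 4.3.3, edgeR 4.0.16, limma 3.58.1, DESeq2 1.42.0, Python 3.11.15, pandas 2.3.3, numpy 2.4.6 and matplotlib 3.10.9. The fits were tested on simulated data. Every simulated library, a lone clone included, was drawn with the spread of the fit itself, which with 3 groups comes from the WT pair. The simulation thus takes as given that a clone varies like that pair, and does not test it. False calls there were 2.08% of calls for WT against NOCT-KO, 2.11% for clone 4 and 5.04% for clone 5, and genes changed by 1 on the log2 scale were found at 70.1% and 68.7% in the clone contrasts.

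Members and lists were chosen with earlier results of these data known. Full values were given for members called, the 5 with the smallest p in WT against NOCT-KO and the 5 highest per length, and related genes were named where called or among the 3 smallest p of their list. Alternatives were DESeq2 size factors and Wald test, limma-voom, other filters, halved counts, date lines kept, another gene length and leaving out each library. The results of 1 member are not reported here or plotted, and that member stays in the counts and medians.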

Additional observations from a re-analysis of the deposited data

Results flagged for a closer look

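SLC25A21, the oxodicarboxylate carrier, differed between the clones: clone 4 over clone 5 gave a log2 fold change of -1.44 in the direct test (edgeR's quasi-likelihood test, adjusted p = 0.00957), with 64 counts in clone 4 and 200 in clone 5 against 204 and 208 in the WT pair. Each clone is 1 library, so a property of the clone and of its library cannot be told apart.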

How the results depend on the processing

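No paired analysis was possible because the WT libraries are numbered 1 and 2 and the NOCT-KO libraries 4 and 5, so the groups share no replicate number. Members called in WT against clone 4 (1) became 2 with DESeq2 size factors, 2 with halved counts and 0 with no filter. Clone 4 against clone 5 (1) became 2 with halved counts, 0 with no filter and 0 with the DESeq2 Wald test. The cause of these changes was not tested. Leaving out a library gave 0 to 1 members called in WT against NOCT-KO, with SLC25A21 called at 1.46 without clone 5. It gave medians of -0.057 to -0.0044 for WT against NOCT-KO, -0.056 to 0.010 for WT against clone 4 and -0.053 to 0.010 for WT against clone 5, and 3 to 7 members in the bottom 2000. The signs of SLC25A5 and SLC25A13, which were not called, reversed in WT against NOCT-KO, to -0.012 without clone 4 and -0.097 without WT 2. Over all libraries left out they ran from -0.012 to 0.11 and from -0.097 to 0.14. SLC25A21 lost its call with no filter at unchanged size (1.47 and -1.44), and with the DESeq2 Wald test for the clones (-1.43). Of the values for whole comparisons 78 stayed the same, 6 moved, 4 were stronger and 3 weaker. Same means counts within 1.5 times, or a median shifted by no more than the spread between replicate libraries. Of the values for named SLC25 members 120 stayed the same, 2 reversed, 1 was stronger and 3 weaker. For these, same means an unchanged sign and call, or without a test a shift within the spread of the WT pair. All of these members but SLC25A21 were uncalled in the main fits. Genes outside the rule that were called, such as NOCT, MPC1, MCU and GOT2, are not among these values. Without replicates inside a clone, clone contrasts carry no error of their own, and members under about 50 counts have wide intervals.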

Other observations

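Enzymes that work on the same routes as the carriers were followed as a list of 14. In WT against NOCT-KO 0 of 14 were called (edgeR's quasi-likelihood test) and 0 had an unadjusted p under 0.05, with a median log2 fold change of 0.01. In WT against each clone 1 of 14 was called, where 11.4% (clone 4) and 3.51% (clone 5) of all genes were. GOT2, the matrix aspartate aminotransferase of the malate-aspartate shuttle, had 384, 365, 284 and 430 CPM in WT 1, WT 2, clone 4 and clone 5. It was 0.40 higher in WT than in clone 4 on the log2 scale (edgeR adjusted p = 0.00570), while the carriers of that shuttle, SLC25A11, SLC25A12 and SLC25A13, were not called, at -0.05, 0.06 and 0.05. MTHFD2, a folate enzyme of the matrix, had 679, 687, 627 and 894 CPM and was lower in WT than in clone 5 (-0.39, edgeR adjusted p = 0.00509). GOT2 and MTHFD2 were both lower in clone 4 than in clone 5 (-0.60 and -0.51, edgeR adjusted p = 0.000647 for each). The smallest p of the list in WT against NOCT-KO belonged to the carnitine palmitoyltransferases CPT1A and CPT2, partners of SLC25A20 in fatty acid import, with log2 fold changes of -0.17 (95% interval -0.41 to 0.07) and -0.23 (95% interval -0.64 to 0.18), and to MTHFD1L at 0.10 (95% interval -0.14 to 0.34).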
